A study of Mus musculus with 2 samples.

Results

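Irf8, Bcl6, Maf and Id2, which encode transcriptional repressors of osteoclast (OC) differentiation, were followed through an scRNA-Seq comparison of OC-induced bone marrow-derived monocytes (BMDMs). The members were chosen by gene symbol, and each of the 4 symbols matched 1 of the 32544 genes counted. The study asked what becomes of the early RANKL response when myeloid cells lose Arid1a, which encodes a BAF chromatin remodelling subunit. It gave 1 library labelled control, whose genotype the labels state no further, and 1 labelled LysM-Cre;Arid1afl/fl (mutant), in which Cre driven by the lysozyme M promoter acts in myeloid cells. Both cultures received M-CSF at 50 ng/ml and RANKL at 100 ng/ml and were collected 1 day after RANKL, from donor mice of 4 to 6 weeks by the study's methods. With 1 library per genotype no difference below has a replicate check, so no test across samples was made, and the 95% intervals in parentheses cover counting error only. How many animals were pooled into each culture was not given in the sources used here.

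Osteoclasts arise from macrophage precursors when RANKL induces the transcription factor NFATC1, and several repressors hold that programme back in unstimulated cells. IRF8 restrains NFATC1, BCL6 occupies and silences OC genes, MAF belongs to the large MAF factors of the macrophage programme, and ID2 is a helix-loop-helix protein without a DNA-binding region that ties up its partners. BLIMP1, the product of Prdm1, is induced by RANKL and is known to silence repressors of this kind, Irf8 and Bcl6 among them.

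Cells needed at least 500 detected genes and no more than 10% of UMIs from mitochondrial genes, which kept 6269 cells of the control and 5663 of the mutant library, with medians of 23978 and 21734 UMIs per cell. The libraries shared 8 cell barcodes, and doublets were not removed. Each cell was given an OC score, its UMIs over Ctsk, Mmp9 and Dcstamp, and cells with a score of at least 3 are called OC-high and those with 0 OC-zero. OC-high cells numbered 1258 in the control library (20.1%) and 264 in the mutant library (4.66%). Arid1a was at 51.9 CPM (UMIs per 1e6 UMIs summed over cells) in control cells and 20.4 CPM in the mutant library. The loxP sites flank internal exons, outside the 3′ end that these libraries count, so this level does not measure the deletion itself. Of markers of other cells, the lymphoid genes Cd3e, Cd79a and Ms4a1 summed to 0.055 CPM in control and 0.183 CPM in mutant cells. Cd3e had no UMI in either library. The conventional dendritic cell genes Xcr1, Clec9a, Flt3 and Itgae summed to 0.183 CPM in each. The plasmacytoid dendritic cell genes Siglech, Bst2, Tcf4 and Ccr9 summed to 594 CPM in control and 1903 CPM in mutant cells. Bst2 gave most of these UMIs in both libraries. The neutrophil markers S100a8, S100a9, Camp and Ngp summed to 264 CPM in control and 1982 CPM in mutant cells. MHC class II genes summed to 28.7 and 116 CPM. Values without the cells richest in neutrophil, stromal or class II markers are given further on.

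In the mouse genome (GRCm39) the 4 genes lie on 3 chromosomes. Irf8 spans chr8:121463096-121485659 on the plus strand, and Maf lies on the same chromosome at chr8:116409632-116434579 on the minus strand. Bcl6 spans chr16:23783802-23807602 and Id2 chr12:25143798-25147282, both on the minus strand. The counted gene Gm15655 overlaps Maf on the opposite strand and had 107 control and 247 mutant UMIs, and Gm36287 overlaps Id2 on the opposite strand with 11 and 1 UMIs. Strand use in counting was not stated, so reads of such overlaps cannot be assigned with certainty, but these UMIs are few beside the 7792 and 18933 of Maf and the 18900 and 23739 of Id2. Opposite-strand genes that were not counted also overlap Bcl6, Maf and Id2, and no gene overlaps Irf8. The promoters of Irf8 and Bcl6 are printed because both genes had a match to a motif that STAT factors and BCL6 itself are known to bind. They are the 250 bases before the start site in RefSeq (GRCm38.p6), at chr8:120736108-120736357 on the plus strand and chr16:23988853-23989102 on the minus strand, given 5′ to 3′ with motif matches in capitals.
Irf8 promoter: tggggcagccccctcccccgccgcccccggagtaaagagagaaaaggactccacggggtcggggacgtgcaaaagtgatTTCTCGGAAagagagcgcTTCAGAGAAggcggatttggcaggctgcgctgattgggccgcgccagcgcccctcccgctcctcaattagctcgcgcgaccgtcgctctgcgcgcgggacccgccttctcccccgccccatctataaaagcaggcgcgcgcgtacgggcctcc
Bcl6 promoter: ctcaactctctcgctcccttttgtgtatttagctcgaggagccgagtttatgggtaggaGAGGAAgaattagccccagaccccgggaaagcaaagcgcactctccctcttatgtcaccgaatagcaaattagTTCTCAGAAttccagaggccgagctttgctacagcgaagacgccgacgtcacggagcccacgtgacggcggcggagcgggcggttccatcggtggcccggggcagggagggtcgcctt
The capitals in the Irf8 promoter are the TTCNNNGAA matches TTCTCGGAA and TTCAGAGAA, which begin at -171 and -153 from the start site. In the Bcl6 promoter they are the TTCNNNGAA match TTCTCAGAA at -118 and a GAGGAA match, the core bound by PU.1, at -191. TTCNNNGAA was found in 7.18% and GAGGAA in 23.1% of 27025 promoters of this length, searched on both strands. Neither the IRF motif GAAANNGAA (7.16% of promoters), the BLIMP1 core AAGTGAAA (1.44%) nor the AP-1 motif TGANTCA (6.87%) had a match in the promoters of Irf8, Bcl6 or Id2, and the Id2 promoter had none of the 5 motifs. GAAANNGAA and AAGTGAAA can overlap each other. A match is a description of letters in this window, and Maf was not in the promoter table.

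Between the whole libraries, Maf, Bcl6 and Id2 were higher in the mutant and Irf8 differed little. Maf was at 47.6 CPM in the control (46.6 to 48.7) and 144 CPM in the mutant library (142 to 146), a 3.02-fold difference (log2 ratio 1.60, from 1.56 to 1.63). Bcl6 was at 5.95 CPM in the control (5.58 to 6.33) and 13.3 CPM in the mutant library (12.7 to 13.9), or 2.23-fold (log2 ratio 1.16, from 1.05 to 1.27). Id2 was at 116 CPM in the control (114 to 117) and 181 CPM in the mutant library (178 to 183), or 1.56-fold (log2 ratio 0.64, from 0.62 to 0.67). These 3 genes were past 1.5-fold. Irf8 was at 32.1 CPM in the control (31.2 to 33.0) and 37.1 CPM in the mutant library (36.1 to 38.2), or 1.16-fold (log2 ratio 0.21, from 0.15 to 0.26). The intervals of the libraries did not overlap for any of the 4 genes. Thus 3 of 4 members were at least 1.5-fold higher in the mutant library, beside 13.1% of the 8650 genes whose mean reached 5 CPM, whose median log2 ratio was 0.05. None of the 4 was 1.5-fold lower, beside 5.94% of genes. Id2 lay close to this fold and was below it under other scalings, with a log2 ratio of 0.58 under TMM and 0.55 under median-of-ratios scaling. Of all these genes, 97.7% had a lower ratio than Maf, 95.5% than Bcl6, 88.5% than Id2 and 65.5% than Irf8.

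**Figure D1:**
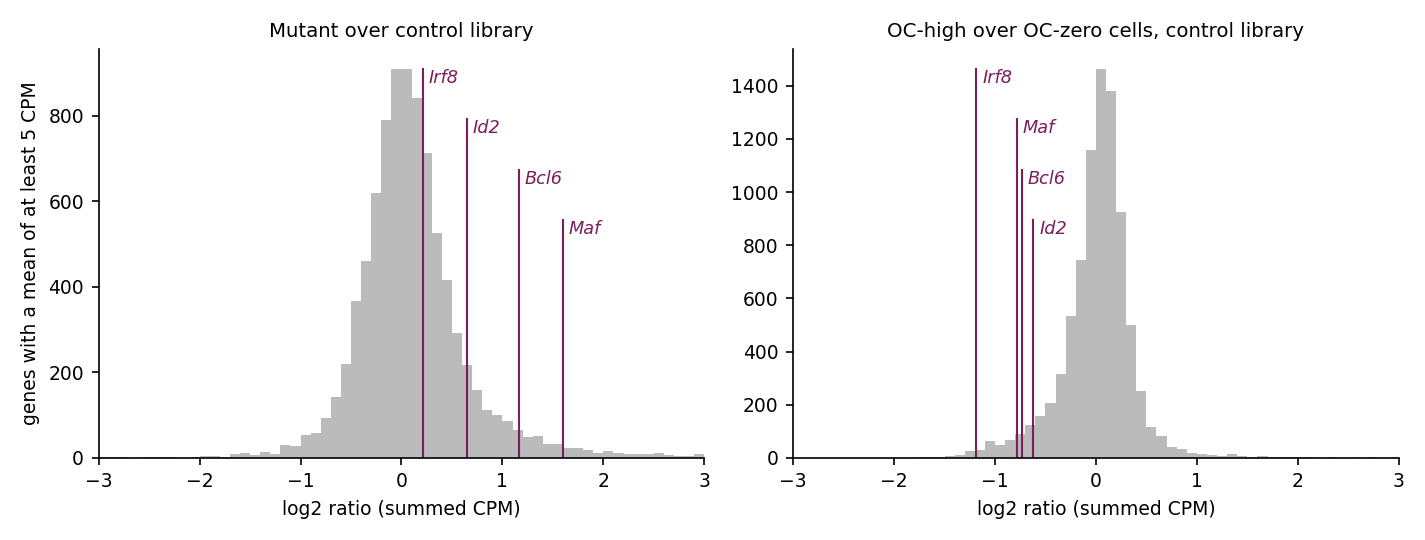
Histograms of log2 ratios over all genes whose mean reached 5 CPM (y axis, number of genes per bin of 0.1; x axis, log2 ratio of summed CPM), for mutant over control libraries on the left and OC-high over OC-zero control cells on the right, with lines at the 4 repressors. On the left Irf8 (0.21) lies within the bulk and Maf (1.60) far to the right, and on the right all 4 lie to the left of the bulk; 40 and 14 genes fall outside the range drawn.

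Because the mutant library held fewer OC-high cells, the comparison was repeated among cells with no UMI of Ctsk, Mmp9 or Dcstamp, 3503 control and 4656 mutant cells. Irf8 was then level, at 37.9 CPM (36.6 to 39.3) in control cells and 38.2 CPM (37.0 to 39.5) in the mutant library (log2 ratio 0.01, from -0.06 to 0.08). Maf still differed, at 52.8 CPM (51.2 to 54.4) and 147 CPM (145 to 150), a log2 ratio of 1.48 (1.43 to 1.53). Bcl6 was at 6.62 CPM (6.08 to 7.21) in control and 13.6 CPM (12.9 to 14.3) in mutant OC-zero cells, a log2 ratio of 1.04 (0.89 to 1.18). Id2 was at 129 CPM (127 to 132) and 184 CPM (182 to 187), a log2 ratio of 0.51 (0.48 to 0.55). Hence, the small whole-library difference of Irf8 was not present among OC-zero cells, whereas those of Maf, Bcl6 and Id2 were. In OC-zero cells 2 of 4 members, Maf and Bcl6, were at least 1.5-fold higher in the mutant library beside 12.4% of 8644 genes, and none was 1.5-fold lower beside 4.44%. Id2, at 1.43-fold, was just below that fold there and just above it (1.56-fold) over all cells.

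Within each library the 4 repressors were lower in OC-high than in OC-zero cells. In the control library Irf8 was at 37.9 CPM in OC-zero and 16.7 CPM (15.4 to 18.0) in OC-high cells, a log2 ratio of -1.19 (-1.31 to -1.07). Maf was at 52.8 CPM in OC-zero and 30.6 CPM (29.0 to 32.4) in OC-high control cells (log2 ratio -0.79, from -0.88 to -0.69). For Bcl6 these levels were 6.62 and 3.98 CPM (3.39 to 4.65), a log2 ratio of -0.73 (-0.996 to -0.48). Id2 was at 129 and 84.0 CPM (81.2 to 86.8), a log2 ratio of -0.62 (-0.68 to -0.57). All 4 members were thus at least 1.5-fold lower in OC-high control cells, beside 5.87% of 8516 genes, and none was 1.5-fold higher, beside 3.44%. Id2 fell short of this fold with mitochondrial and ribosomal protein genes left out of the totals (-0.55) and with Mmp9 left out of the score (-0.58). OC-high cells were also the deeper ones, with medians of 28526.5 UMIs against 22073 in OC-zero control cells and 29101 against 20678 in the mutant library, and the direction of all 4 members was the same when averaged over 4 equal groups of cells by depth in both libraries.

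In the mutant library this contrast was nearer to 0 for Irf8, Maf and Id2. Irf8 was at 38.2 CPM in OC-zero and 23.4 CPM (20.2 to 26.9) in OC-high cells (log2 ratio -0.71, from -0.92 to -0.50). Bcl6 was at 13.6 and 8.53 CPM (6.66 to 10.8), a log2 ratio of -0.67 (-1.04 to -0.33). Maf was at 147 and 104 CPM (96.9 to 111), a log2 ratio of -0.51 (-0.61 to -0.41). For Id2 the levels were 184 and 144 CPM (136 to 152), a log2 ratio of -0.36 (-0.44 to -0.27). Irf8 and Bcl6 were therefore at least 1.5-fold lower in mutant OC-high cells, 2 of 4 members beside 2.78% of 8747 genes, and none was 1.5-fold higher, beside 2.82%. This count depended on the gate and on depth. Averaged over 4 equal groups of cells by depth, Bcl6 fell short (-0.58) and Maf passed (-0.76), after thinning Maf passed as well (-0.97), and at 10 or more UMIs all 4 passed. The log2 ratio of the mutant minus that of the control library was 0.48 (0.24 to 0.72) for Irf8, 0.28 (0.15 to 0.41) for Maf and 0.27 (0.16 to 0.37) for Id2, and 0.06 (-0.37 to 0.49) for Bcl6, an interval that holds both 0 and the value of Irf8. For Maf this order depended on depth, since averaged over 4 equal groups of cells by depth its log2 ratio was -0.64 in control and -0.76 in mutant cells, and at scores of 3 to 9 it was -0.30 and -0.35. OC-high cells of the libraries also differed in their scores, since 496 of 1258 control but 64 of 264 mutant OC-high cells had a score of at least 10. Within score bins the ratios of Irf8 and Id2 were still nearer to 0 in the mutant library, though their intervals were not always apart. At 3 to 9 the control and mutant intervals overlapped for Irf8 (-0.76 and -0.57) but not for Id2 (-0.45 and -0.23). At 10 or more they overlapped for Id2 (-0.88 and -0.76) but not for Irf8 (-2.06 and -1.18). After thinning, the ratios of Irf8 (-1.98 and -1.71) lay closer together than without it.

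Split by score, the members were near their OC-zero level at a score of 1 to 2 and lowest at 10 or more. Irf8 in the control library was at 37.9 CPM at score 0, 35.7 CPM at 1 to 2, 22.4 CPM at 3 to 9 and 9.12 CPM (7.76 to 10.7) at 10 or more. Its mutant levels in the same order were 38.2, 37.0, 25.8 and 16.9 CPM (12.0 to 23.2). So Irf8 hardly differed between the genotypes up to a score of 2, and at 10 or more it was 1.85-fold higher in the mutant library (log2 ratio 0.89, from 0.34 to 1.41). Maf in the control library was at 52.8, 54.0, 43.0 and 14.3 CPM (12.6 to 16.2), and in the mutant library at 147, 144, 116 and 71.2 CPM (60.6 to 83.1). Maf thus reached its lowest level in control cells with the highest scores, where the difference between the genotypes was 4.96-fold (log2 ratio 2.31, from 2.02 to 2.60). Even mutant cells with a score of 10 or more held more Maf than control cells with a score of 0. Those mutant cells also held more Arid1a than mutant cells with a score of 0, at 32.9 against 20.2 CPM (log2 ratio 0.71, from 0.35 to 1.04). Whether this bears on the repressors at that score was not tested.

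Bcl6 in the control library was at 6.62, 6.52, 4.79 and 2.93 CPM (2.18 to 3.85) over the same scores. In the mutant library it was at 13.6, 13.6, 10.2 and 4.01 CPM (1.83 to 7.60), where the last value rests on 9 UMIs. The genotypes therefore differed about equally up to a score of 9, and at 10 or more the interval of the log2 ratio (0.45, from -0.76 to 1.49) included 0. Id2 lay at 129, 119, 94.4 and 70.2 CPM (66.4 to 74.3) in the control library and at 184, 177, 157 and 109 CPM (95.4 to 123) in the mutant library. For Id2 the log2 ratios between the genotypes over these scores were 0.51, 0.57, 0.73 and 0.63.

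**Figure D2:**
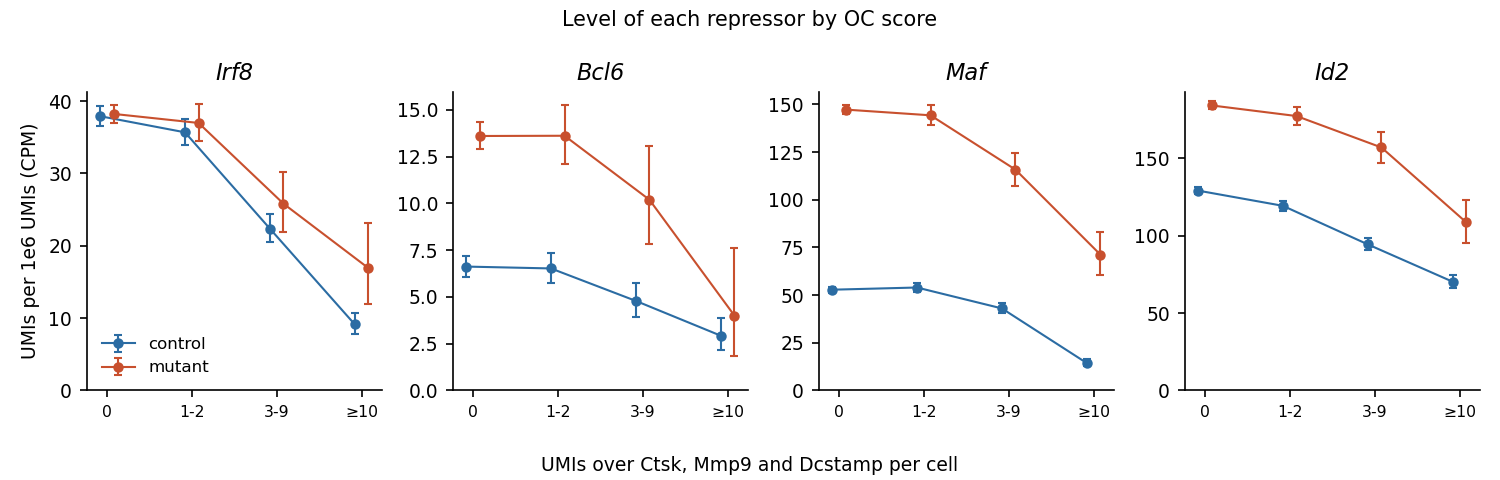
Level of Irf8, Bcl6, Maf and Id2 (y axis, UMIs per 1e6 UMIs summed over cells) by OC score, the UMIs over Ctsk, Mmp9 and Dcstamp in a cell (x axis), in the control (blue) and mutant (red) library, with 95% exact Poisson intervals as bars. The Irf8 lines lie together at scores 0 and 1 to 2 (37.9 and 38.2 CPM at 0), while the mutant Maf and Id2 lines lie above the control at every score.

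Prdm1, which encodes BLIMP1, and Nfatc1 went the other way over the scores. Prdm1 in the control library was at 5.10 CPM at score 0, 7.59 CPM at 1 to 2, 23.4 CPM at 3 to 9 and 47.8 CPM at 10 or more. In the mutant library it was at 5.05, 6.43, 11.7 and 49.0 CPM. The score differed in its make-up, since at 3 to 9 Mmp9 was at 84.2 CPM in control and 24.0 CPM in mutant cells and Ctsk at 56.8 and 118 CPM, so cells of equal score are not alike in every respect. At scores of 3 to 9 mutant cells held less Prdm1 and, for Maf, Bcl6 and Id2, more of the repressors. At 10 or more the genotypes held like levels of Prdm1. Irf8, Maf and Id2 were higher in the mutant there, and the interval of Bcl6 included 0. Whether Prdm1 accounts for the levels of the repressors was not tested. Nfatc1 was at 24.6, 34.2, 70.0 and 196 CPM in the control and at 26.6, 31.0, 40.8 and 142 CPM in the mutant library. Prdm1 and Nfatc1 were thus highest at 10 or more in both libraries, where each of the members was lowest.

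**Figure D3:**
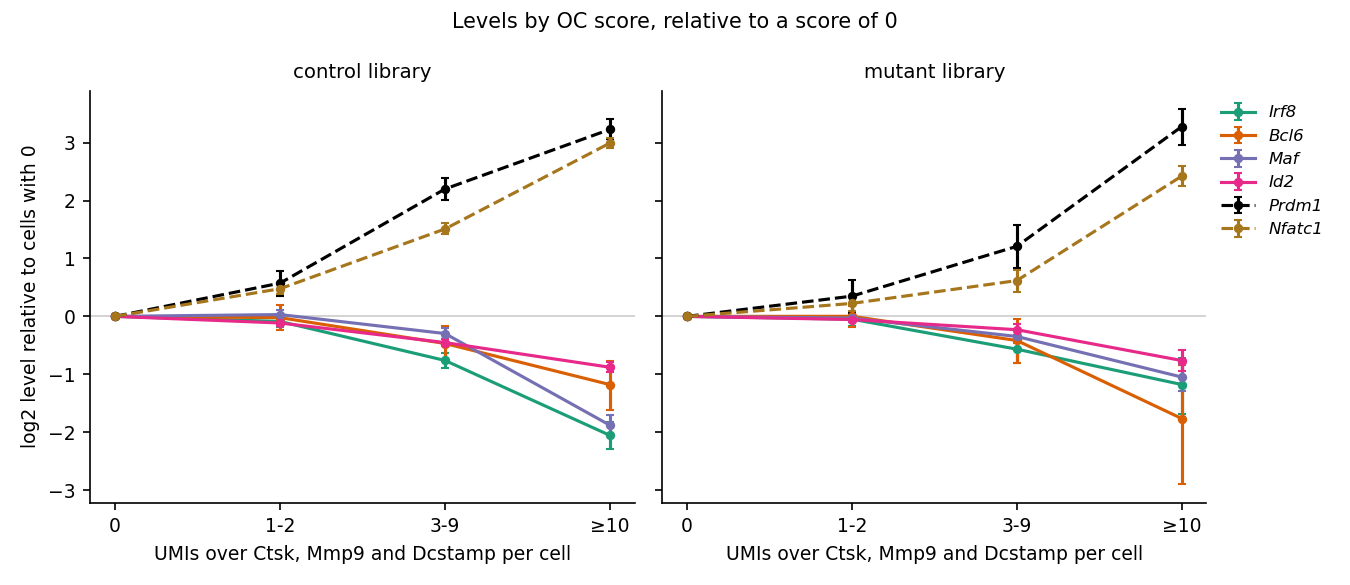
Log2 level relative to cells with an OC score of 0 (y axis) by OC score (x axis), for the 4 repressors (solid lines) and Prdm1 and Nfatc1 (dashed lines), in the control library on the left and the mutant library on the right, with 95% intervals that cover counting error. Prdm1 and Nfatc1 climb with the score and the repressors descend, with Irf8 at -2.06 in control and -1.18 in mutant cells at 10 or more.

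The differences were spread over cells in unlike ways. Maf had no UMI in 56.8% of control and 31.7% of mutant cells, and 10 or more UMIs in 1.31% and 9.31%. Bcl6 had no UMI in 86.8% of control and 75.8% of mutant cells and never more than 6 in a cell. Both genes were therefore found in more cells of the mutant library. Id2 had no UMI in 31.0% of control and 31.8% of mutant cells, yet 10 or more in 7.34% and 13.7%, so that its higher level lay in cells with many Id2 UMIs. Irf8 had no UMI in 59.3% and 59.7% of cells and at most 15 and 21 UMIs in a cell. The 1% of cells with most UMIs of the gene held between 7.52% and 15.0% of its UMIs in every case.

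At a common depth of 5000 UMIs per cell, to which 6101 control and 5312 mutant cells were thinned, Maf was found in 17.9% of control (17.0 to 18.9%) and 40.0% of mutant cells (38.7 to 41.4%). Bcl6 was found in 2.84% (2.43 to 3.28%) and 6.57% (5.92 to 7.27%), and Id2 in 35.0% (33.8 to 36.2%) and 41.5% (40.2 to 42.9%). Irf8 was found in 14.0% (13.2 to 14.9%) of control and 14.5% (13.6 to 15.5%) of mutant cells, whose intervals overlapped. A neutrophil gate (at least 20000 CPM over S100a8, S100a9, Camp and Ngp within a cell) held 74 mutant cells at this depth. Irf8 was found in 5.41% of them (1.49 to 13.3%) and Maf in 12.2% (5.71 to 21.8%). These cells were thinned from a median of 10815.5 UMIs, against 22412 over all mutant cells. Before thinning, the highest count in a gated mutant cell was 9 of 24 Irf8 UMIs and 10 of 48 Maf UMIs. Free RNA therefore cannot be told apart here from RNA of the gated cells or of doublets. The shares of Bcl6 (9.46%) and Id2 (60.8%) were no lower in this gate than over all mutant cells. The gate thus gives no background level for the members, and the part of free RNA in their shares was not measured. Among the 16 control cells in the gate none had a UMI of Irf8, Maf or Bcl6, and Prdm1 had none in 74 mutant cells of the gate.

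Control cells that held none of the 4 repressors were more often OC-high than those with 1 or 2, when score and repressors were counted at that depth. In the control library 270 of 3005 cells without a UMI of any member had a thinned OC score of at least 3 (8.99%, 7.99 to 10.1%). With 1 member present the share was 4.47% of 2123 cells (3.64 to 5.44%), with 2 it was 1.75% of 798 (0.962 to 2.93%), and with 3 it was 1.83% of 164 (0.379 to 5.25%). Of the 11 control cells with all 4 members none was OC-high. The mutant shares were 1.43% of 1680 cells with none (0.917 to 2.12%), 0.981% of 2141 with 1 (0.608 to 1.495%) and 0.338% of 1184 with 2 (0.0921 to 0.863%). The first of these intervals overlaps the second but not the third. No OC-high cell was among the 283 mutant cells with 3 members, which allows a share of up to 1.30% by the exact interval, or among the 24 with 4. Median depth before thinning was alike over these classes, between 22274 and 24479 UMIs in the control library.

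**Figure D4:**
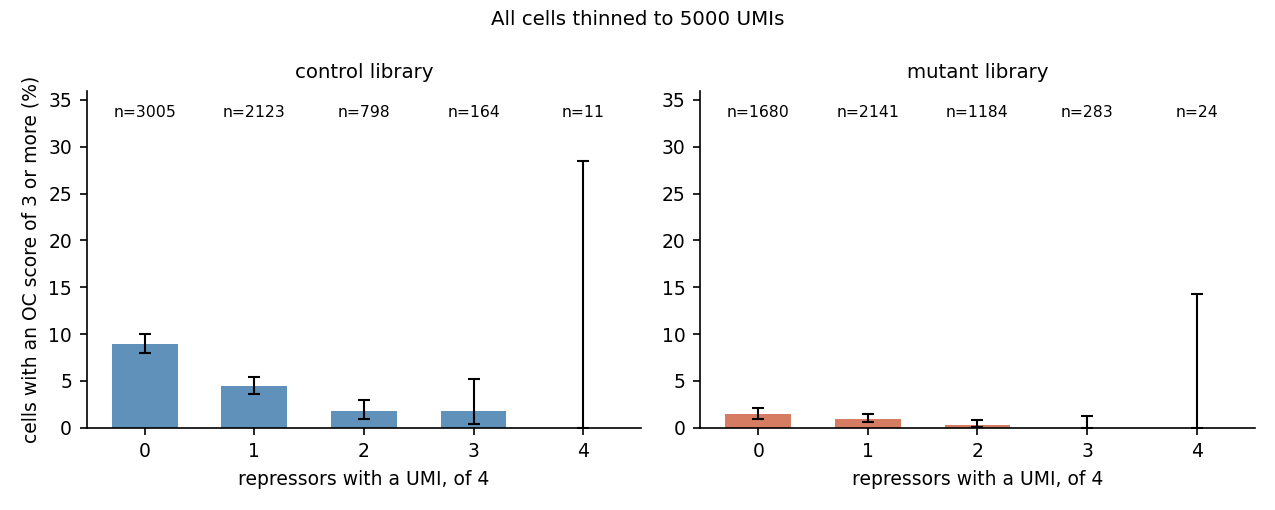
Share of cells with an OC score of at least 3 (y axis, percent) by the number of the 4 repressors with a UMI (x axis), in the control library on the left and the mutant library on the right, all cells thinned to 5000 UMIs, with exact binomial 95% intervals and the number of cells above each bar. The control share is 8.99% with none and 1.75% with 2 repressors, and the mutant share 1.43% and 0.338%.

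Gene by gene, 7.01% of the 5246 control cells without an Irf8 UMI were OC-high (6.34 to 7.74%), against 1.49% of 736 cells with 1 (0.748 to 2.66%) and 2.52% of 119 with 2 or more (0.523 to 7.19%), an interval that holds the share of cells with none. For Maf these shares were 7.23% (6.53 to 7.98%), 1.76% (0.967 to 2.94%) and 2.00% (0.737 to 4.30%). For Id2 they were 7.28% (6.49 to 8.14%), 5.28% (4.13 to 6.63%) and 2.91% (1.87 to 4.29%). Bcl6 gave 6.36% with none (5.75 to 7.01%) and 2.96% with 1 UMI (0.967 to 6.77%), and no OC-high cell among the 4 with more. Control cells with 1 UMI of Irf8 or Maf were thus less often OC-high than cells with none, beyond counting error. The mutant shares for Id2 were 1.03% (0.706 to 1.45%), 0.549% (0.202 to 1.19%) and 0.987% (0.494 to 1.76%), from 32, 6 and 11 OC-high cells, too few to show an order. A cell with a UMI of 1 member also held another more often than a cell without it. Of control cells with Irf8, 29.0% held Maf and 51.5% Id2, against 16.1% and 32.3% of cells without Irf8. In the mutant library these shares were 51.0% and 51.3% with Irf8 and 38.1% and 39.9% without. The odds ratios of the 6 pairs lay between 1.46 and 2.23 in the control and between 1.13 and 1.69 in the mutant library.

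The 4 genes were also lower in cycling cells, a gate of 3 or more UMIs summed over Aurka, Cdk1, Mki67 and Top2a, which made up 71.0% of control and 60.1% of mutant cells. Cycling cells were deeper, with medians of 25977 against 19476.5 UMIs in control and 24892 against 16988 in mutant cells. Cells of at least 5000 UMIs, without those richest in neutrophil, stromal or class II markers, were split into 4 groups by depth. In the deepest over the shallowest of these groups, Maf had log2 ratios of -0.67 in control and -0.34 in mutant cells. Those of Bcl6 were -0.14 and -0.37, of Irf8 -0.10 and 0.09, and of Id2 0.06 and 0.33. The part of depth in the cycling contrast was not tested. Maf was at 38.6 CPM in cycling and 79.3 CPM in other control cells, and at 129 and 179 CPM in the mutant library. Irf8 was at 29.3 and 42.0 CPM in control and 34.2 and 43.8 CPM in mutant cells. For Id2 the levels were 106 and 147 CPM in the control and 167 and 211 CPM in the mutant library, and for Bcl6 5.56 and 7.31 CPM in control and 12.4 and 15.4 CPM in mutant cells. The genotype difference of Maf was thus larger in cycling cells (log2 ratio 1.74, from 1.69 to 1.79) than in the others (1.17, from 1.11 to 1.24). Among OC-zero cells alone, the log2 ratio of Maf was 1.65 (1.58 to 1.71) in cycling and 1.10 (1.02 to 1.18) in other cells, that of Bcl6 1.01 and 1.03, that of Id2 0.52 and 0.43, and that of Irf8 0.03 and -0.09.

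Cells in gates for other cell types made little difference to these values. The neutrophil gate held 18 control and 88 mutant cells, a gate for MHC class II genes (Cd74, H2-Eb1, H2-Aa and H2-Ab1) 9 and 61, and a stromal gate (Sparc, Col1a1, Col1a2 and Col3a1) 3 and 3. Without them the log2 ratios of mutant over control were 0.20 for Irf8, 1.16 for Bcl6, 1.61 for Maf and 0.64 for Id2. Irf8, which is required for dendritic cells, was at 86.9 CPM (67.9 to 110) in the mutant class II gate and at 37.8 CPM (13.9 to 82.3) in the control one, from 71 and 6 UMIs. Maf in the mutant class II and neutrophil gates was at 52.6 and 45.4 CPM, well below the 144 CPM over all mutant cells. Id2 reached 241 CPM (212 to 273) in the mutant neutrophil gate.

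Interferon-stimulated genes differed strongly between the libraries, so the members were also placed by an interferon score, the CPM in a cell over Isg15, Ifit1, Ifit2, Ifit3, Ifi44, Rsad2, Oasl2, Usp18, Ifi47 and Cmpk2. Cells of each library were split by this score into 4 equal groups, of 1518 or 1519 control and 1296 mutant cells. These groups leave out part of the cells kept. Their medians ran from 28.3 to 673 CPM in control and from 658 to 2668 CPM in mutant cells. In the control library all 4 members were higher in the highest than in the lowest group, Irf8 at 36.2 against 22.0 CPM and Id2 at 132 against 85.5 CPM. Mutant cells of the highest group had less Irf8, at 30.1 against 45.0 CPM (log2 ratio -0.58, from -0.70 to -0.46), and less Id2, at 166 against 201 CPM (-0.28, from -0.33 to -0.22). Maf was higher in the highest group of both libraries, at 66.0 against 27.9 CPM in control and 170 against 132 CPM in mutant cells. Bcl6 was at 7.13 against 4.70 CPM in the control and 14.6 against 12.3 CPM in the mutant library. Its mutant levels were not in order over the 4 groups, at 12.3, 13.8, 12.5 and 14.6 CPM from lowest to highest score. OC-high cells made up 31.5% of the lowest and 14.8% of the highest control group, and 3.32% and 6.17% in the mutant library. Among OC-zero cells alone the compared groups held 833 control and 1055 mutant cells each. There the log2 ratio of highest over lowest group was 0.31 (0.15 to 0.46) for Irf8 in control and -0.63 (-0.76 to -0.49) in mutant cells. For Id2 it was 0.34 (0.25 to 0.42) and -0.28 (-0.34 to -0.22), and for Maf 0.73 (0.60 to 0.86) and 0.32 (0.26 to 0.39). For Bcl6 it was 0.40 (0.04 to 0.76) and 0.20 (-0.03 to 0.42), the latter an interval that holds 0. Whether the score itself accounts for these differences was not tested.

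**Figure D5:**
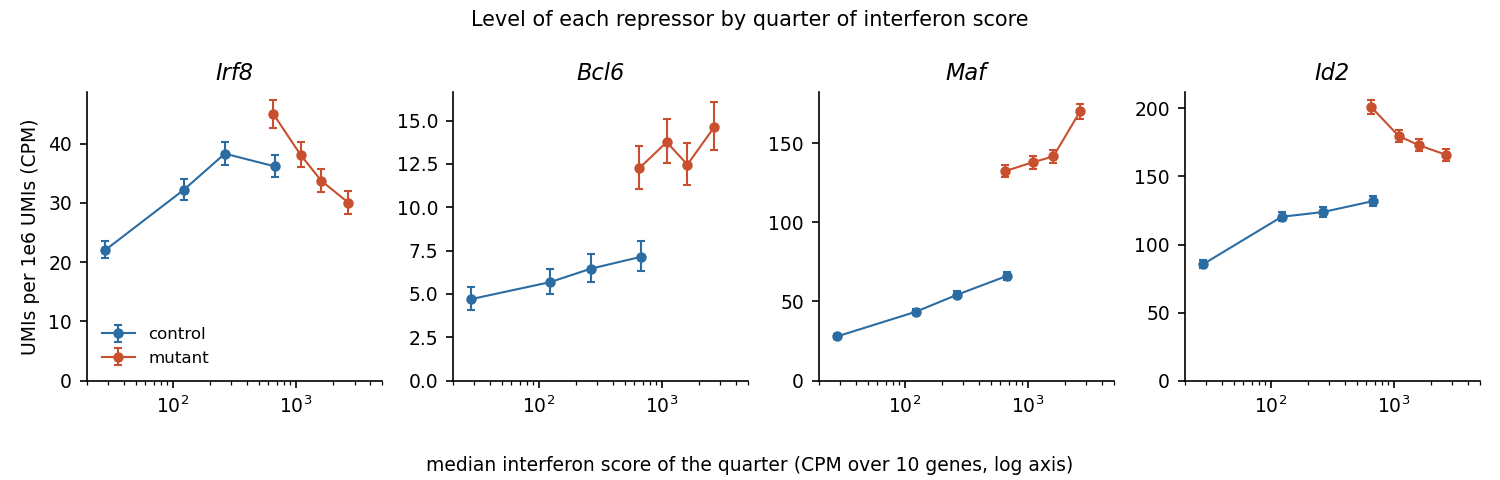
Level of each repressor (y axis, UMIs per 1e6 UMIs) in 4 equal groups of cells by interferon score, placed at the group's median score (x axis, log scale), in the control (blue) and mutant (red) library, with 95% exact Poisson intervals. Irf8 and Id2 are higher in the highest than in the lowest control group (36.2 against 22.0 CPM for Irf8) and lower in the highest mutant group (30.1 against 45.0 CPM), while the mutant Maf points lie between 132 and 170 CPM, above all control points.

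Cells with a score of 500 to 1000 CPM occurred in both libraries, 717 in the control and 1426 in the mutant. Among them Maf was at 61.8 and 135 CPM (log2 ratio 1.13, from 1.03 to 1.22), against 1.60 over all cells. Bcl6 was at 7.33 and 12.4 CPM (0.76, from 0.47 to 1.06), Id2 at 129 and 192 CPM (0.58, from 0.51 to 0.65) and Irf8 at 36.8 and 41.4 CPM (0.17, from 0.03 to 0.31). Within this window Maf, Bcl6 and Id2 were higher in mutant cells, by less than over all cells for Maf and Bcl6. The spread of scores inside the window was not matched, cycling cells made up 57.9% of the control and 65.1% of the mutant cells in it, and the part of the interferon score in these differences was not tested. Cells of the mutant library with and without an Arid1a UMI at 5000 UMIs of depth held Maf at 140 and 144 CPM, Irf8 at 37.8 and 36.9 CPM, Bcl6 at 11.9 and 13.4 CPM and Id2 at 165 and 182 CPM. Since the Arid1a count does not measure the deletion and its background share was not measured, this split does not mark cells that kept the gene.

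Among 9 other negative regulators of OC differentiation, 5 reached a mean of 5 CPM and Hes1, Lhx2, Egr2 and Nr4a1 did not. Of the 5, 3 were at least 1.5-fold higher in the mutant library and none lower, beside 13.1% and 5.94% of all genes (median log2 ratio 0.97, beside 0.05). Id1 and Id3, relatives of Id2 with the same lack of a DNA-binding region, had log2 ratios of 1.31 and 1.20, and Klf2, a zinc finger factor of quiescent monocytes, 0.97. Nfe2l2 (0.50) and the Notch effector Rbpj (-0.02) were within 1.5-fold. In OC-high control cells 4 of the 5 were at least 1.5-fold lower, beside 5.87% of all genes (median -1.08, beside 0.05), with Id1 at -1.57 and Id3 at -1.47, whereas in the mutant library none of the 5 was (median -0.30, beside -0.02). Each of the 5 thus had the lower OC-high ratio in the control library, as Irf8 and Id2 had.

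Of 6 gene-silencing factors listed (Prdm1, Dnmt3a, Ezh2, Hdac1, Hdac2 and Hdac3), only Prdm1 was past 1.5-fold between the libraries. Prdm1 was lower in the mutant, at -1.02 (median of the list -0.22), beside 5.94% of all genes. In OC-zero cells none was past this fold, beside 12.4% of genes higher and 4.44% lower. Prdm1 and Dnmt3a were at least 1.5-fold higher in OC-high control cells (2.74 and 0.72), beside 3.44% of all genes. None of the BCL6 corepressors Ncor1, Bcor and Sin3a, and none of the E proteins that ID proteins bind (Tcf3, Tcf4 and Tcf12), was past 1.5-fold in any of the 4 contrasts, with medians of 0.20 and 0.24 between the libraries. Of the 6 OC activators listed, Nfatc1 (-0.79) and Jdp2 (-1.34) were at least 1.5-fold lower in the mutant library, beside 5.94% of all genes. Fos (0.63) was higher by that fold, 1 of 6 beside 13.1% of all genes (median of the list 0.19). Nfatc1 was at 0.11 among OC-zero cells.

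Irf8 differed less between the libraries than most of its relatives. Of 6 other IRF genes whose mean reached 5 CPM, 4 were at least 1.5-fold higher in the mutant library, beside 13.1% of all genes (median 0.67, beside 0.05), namely Irf7 at 2.96, Irf1 at 1.32, Irf9 at 0.69 and Irf2 at 0.65, while Irf5 was at 0.28 and Irf3 at 0.18, near the 0.21 of Irf8. The small MAF genes Mafg and Mafk had log2 ratios of 0.15 and 0.36, against 1.60 for Maf. Between the libraries, the genes known to be regulated by large MAF factors did not follow Maf in sign. C1qa, C1qb and C1qc, the subunits of complement C1q, were all at least 1.5-fold lower in the mutant library, at -0.82, -0.88 and -0.63, beside 5.94% of all genes. They were lower in OC-high than in OC-zero cells of both libraries (medians -1.45 and -1.35), as Maf was. Il10, also on this list, had a mean below 5 CPM and a log2 ratio of -0.41 between the libraries. In OC-high over OC-zero cells Il10 went the other way, at 1.49 in the control and 0.95 (-0.06 to 1.84) in the mutant library. Of the genes known to be repressed by BCL6, Ccl7 (-1.19) and Prdm1 (-1.02) were at least 1.5-fold lower in the mutant library, beside 5.94% of all genes. Ccl2 (0.38) and Ccl6 (-0.09) were within 1.5-fold (median of these 4 genes -0.55). The fifth, the cyclin gene Ccnd2, had a mean below 5 CPM and was higher in the mutant library, at 323 control and 795 mutant UMIs (log2 ratio 1.62, from 1.43 to 1.81). In OC-zero cells Ccl7 was at -1.45 and Prdm1 at -0.01.

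For each member, the genes of most similar level were sought over 14 combinations of library and cell state with at least 50 cells each, by Pearson's r of log2(CPM + 1) among 8650 genes, as a description with no test. Those of Irf8 were Zfp385a (r = 0.94), Ubl3 (0.93) and Slc2a6 (0.91). Those of Bcl6 were Man2b1 (0.99), Rassf2 (0.97) and Zfhx3 (0.96), and those of Maf Bcl2l1 (0.98), Cd84 (0.97) and Sash1 (0.97). Id2 was most like Ncf1 (0.98), AI413582 (0.96) and Man2b1 (0.96), the last of which it shared with Bcl6. Between members r was 0.95 for Bcl6 and Id2, 0.67 for Bcl6 and Maf and 0.64 for Maf and Id2, and Irf8 had 0.52 with Id2, 0.51 with Bcl6 and 0.36 with Maf. The levels of a library share its depth and preparation.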

How the data were processed

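Single-cell libraries (Chromium 3′ v3.1) of OC-induced BMDMs, 1 per genotype, were analysed. The deposited matrices hold raw UMI counts per gene and cell, produced by the authors using Cell Ranger 6.1.0 and GRCm39, per the labels' processing notes and the methods. Strand use, doublet filtering and any depth equalisation between libraries were not given in the sources used here. Groups came from the genotype labels. Cells with at least 500 genes and at most 10% mitochondrial UMIs were kept. UMIs were summed over cells and scaled to 1e6 (CPM). With 1 library per group no test was made, and UMIs of a cell are not replicates. Exact Poisson, exact conditional (ratios) and exact binomial 95% intervals cover counting error only. So do the intervals, by normal approximation, of the difference between libraries in the OC-high log2 ratios. A gene was called past 1.5-fold among genes of at least 5 CPM on average. For shares, cells were thinned to 5000 UMIs, leaving out 168 control and 351 mutant cells. The text names the 4 members, genes of 9 context lists, and for each member the 3 genes with the highest r. A few genes of these lists are not reported here, and the lists' counts and medians leave them out. The members and lists were chosen with earlier results of these data known. Positions came from GENCODE M39, which held 31977 of 32544 gene IDs, and promoters from RefSeq. Alternatives were other scalings, filters, gates, doublet removal and a weighted mean of log2 ratios over cell states. Ratio and thinning code was tested on simulated data. Python 3.11.15, NumPy 2.4.6, SciPy 1.17.1, pandas 2.3.3, scikit-learn 1.9.0, matplotlib 3.10.9, R 4.3.3 and edgeR 4.0.16 (TMM factors alone) were used.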

Additional observations from a re-analysis of the deposited data

Results flagged for a closer look

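Some contrasts within a library had opposite signs in the genotypes, and with 1 library each the difference between genotypes was not tested. From the lowest to the highest of 4 equal groups of cells by interferon score, the log2 ratio of Irf8 was 0.72 in control and -0.58 in mutant cells, and among OC-zero cells 0.31 and -0.63. For Id2 it was 0.62 and -0.28, and among OC-zero cells 0.34 and -0.28. Cells with an Arid1a UMI held Id2 at a log2 ratio of 0.12 to cells without one in control and of -0.14 in mutant cells.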

How the results depend on the processing

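Each of the 12 member ratios (library ratio, and OC-high over OC-zero in each library) kept its sign under all 100 recomputed values, of which 51 lay within the counting interval of the reported value and 49 outside it. The log2 ratio of mutant over control was 0.15 for Irf8, 1.53 for Maf and 0.58 for Id2 under TMM, and 0.12, 1.51 and 0.55 under median-of-ratios scaling. With mitochondrial and ribosomal protein genes left out of the totals these were 0.10, 1.49 and 0.54, and the control OC-high ratio of Id2 was -0.55. As a mean of the log2 ratios within cell states, weighted by the cells of both libraries, the library ratio was 0.048 for Irf8, 1.03 for Bcl6, 1.47 for Maf and 0.53 for Id2. With every cell weighted alike it was 1.28 for Bcl6, 1.54 for Maf and 0.60 for Id2, and the OC-high ratio of Irf8 was -1.34 in control and -0.92 in mutant cells. Doublet removal gave 1.56 for Maf between libraries, and OC-high ratios in the control of -1.38 for Irf8 and -0.68 for Id2. OC-high ratios after thinning were -1.98, -1.10, -1.78 and -0.99 in the control and -1.71, -1.24, -0.97 and -0.46 in the mutant library, for Irf8, Bcl6, Maf and Id2 in turn. At 10 or more UMIs they were -2.06, -1.18, -1.88 and -0.88 in the control and -1.18, -1.76, -1.05 and -0.76 in the mutant library. Without Mmp9 in the score the control ratios were -1.57 for Irf8 and -1.26 for Maf. A pair of alternatives was chosen after seeing the data. Averaged over 4 equal groups of cells by depth, the OC-high ratios of Irf8, Maf and Id2 were -1.37, -0.64 and -0.72 in the control and -1.04, -0.76 and -0.14 in the mutant library. Among cells with an interferon score of 500 to 1000 CPM the library ratios of Bcl6, Maf and Id2 were 0.76, 1.13 and 0.58. The causes of these shifts were not tested.

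With a mean of 20 CPM required, genes higher in the mutant library numbered 659 instead of 1130 (603 instead of 1072 among OC-zero cells), and genes lower in OC-high cells 268 instead of 500 in the control and 98 instead of 243, or 1.85% instead of 2.78%, in the mutant library, with fewer genes tested. Bcl6 had few UMIs, 9 of them in the 64 mutant cells with a score of at least 10, which limits its values there. No paired analysis was possible because each genotype had 1 library.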
